A study of Mus musculus with 8 samples.

Results

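R-spondins are secreted proteins that make cells more sensitive to WNT ligands. The 9 genes described here are the 4 mouse R-spondins (*Rspo1*, *Rspo2*, *Rspo3* and *Rspo4*), their receptors *Lgr4*, *Lgr5* and *Lgr6*, and *Znrf3* and *Rnf43*, which encode the membrane ubiquitin ligases that R-spondins act on. They were taken by symbol from the platform annotation, in which each of the 9 had exactly 1 probe set, among 19938 genes with a probe set of 1 symbol. The 8 arrays (Affymetrix Mouse Gene 1.0 ST) fall into 4 groups of 2. Neurons of the mesodiencephalic dopaminergic (mdDA) lineage were FACS-sorted by GFP from the ventral midbrain (VM) of *Pitx3*GFP/+ embryos on a mixed C57BL/6 x 129/Ola background at E14.5 and at E13.5. Both the mdDA and the lateral domain were obtained by laser microdissection at E12.5 from pooled tissue of 5 BAT-gal embryos on a mixed B6D2F1 background. BAT-gal mice carry LacZ behind LEF1/TCF binding sites and a minimal promoter, so b-GAL marks cells that answer a WNT/b-catenin signal. The mdDA domain was b-GAL+ and PITX3+, and the lateral domain, at the alar-basal boundary, was negative for both. GFP in the sorted cells reports use of the *Pitx3* locus, so they were chosen by a gene that also defined the mdDA domain. The 2 arrays of a group are technical replicates, so the p-values below measure the spread between arrays and not between embryos. Stage, background, genotype and isolation all differ between sorted and dissected samples and cannot be told apart.

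ZNRF3 and RNF43 sit in the plasma membrane, where they tag Frizzled (FZD) receptors and their co-receptors LRP5 and LRP6 for removal. An R-spondin binds an LGR receptor together with ZNRF3 or RNF43, the ligase is cleared from the surface, and more FZD and LRP stays available for WNT ligands. *Znrf3*, *Rnf43* and *Lgr5* are also known as WNT/b-catenin target genes in several tissues. WNT/b-catenin signaling is required in the VM for the formation of mdDA progenitors and neurons.

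*Rspo2* and *Lgr4* were the 2 genes called between the domains and between sorted neurons and the mdDA domain, in opposite directions. Both comparisons use the mdDA arrays. Of all probe sets, 1.52% were called higher and 1.1% lower between the domains. In sorted neurons against the mdDA domain the shares were 8.53% and 9.84%, near the 1 of 9 genes in each direction. *Lgr4* is the one of the pair with a promoter among the RefSeq windows used here. Its window of 300 bases around the transcription start (chr2:109917397-109917696, plus strand, GRCm38.p6), is shown with its CCAAT boxes in capitals, a motif chosen after the sequence was seen.
Lgr4: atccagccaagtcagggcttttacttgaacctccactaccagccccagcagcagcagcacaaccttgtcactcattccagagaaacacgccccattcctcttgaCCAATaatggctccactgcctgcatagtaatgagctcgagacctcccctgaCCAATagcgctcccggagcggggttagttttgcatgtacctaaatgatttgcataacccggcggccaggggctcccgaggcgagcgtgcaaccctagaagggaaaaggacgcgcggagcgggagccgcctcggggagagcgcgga
The boxes begin 146 and 95 bases before the start. At least 2 such boxes stood in 11.7% and at least 1 in 37.4% of 32851 RefSeq promoter windows of this length, searched for CCAAT on both strands. The letters CTTTG followed by AA, AT, TA or TT, the core that LEF1/TCF factors bind, were searched on both strands. None of them occurred in the 6 windows matched to the genes (1 each for *Lgr4*, *Lgr6*, *Rspo1* and *Rspo4*, and 2 for *Rnf43*). Of all windows 16.9% held at least 1, and 6 windows are too few to be told apart from that share. *Rspo2*, *Rspo3*, *Lgr5* and *Znrf3* were not matched.

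The samples carried most markers of their labels. Between the mdDA and lateral domains, 5 of 6 dopaminergic markers were called higher and 6 of 6 alar plate and GABAergic markers lower. The exception was *Pitx3*, which defined the mdDA domain. It read 7.44 and 7.34 in the mdDA domain, against 6.97 and 6.47 in the lateral domain (difference 0.67, adjusted p = 0.228 from limma). Its transcript thus did not read as dim in the lateral domain. The paper, in contrast, lists *Pitx3* among the transcripts significantly enriched in the mdDA domain (false discovery rate below 10%). The reason for this disagreement was not tested. Sorted neurons showed 4 of 6 dopaminergic markers higher and 8 of 9 ventricular zone progenitor markers lower than the mdDA domain. Of all probe sets, 8.53% were called higher and 9.84% lower there. These marker counts were 4 of 6 and 7 of 9 after repeated quantile normalization, and 6 of 6 and 6 of 9 after centring each array on its median. *Gad2*, which encodes a GABA-synthesizing enzyme, had log2 levels of 7.97 and 7.83 in E14.5 neurons, 7.95 and 7.56 in E13.5 neurons, 5.29 and 5.31 in the mdDA domain, beside 8.45 and 8.23 in the lateral domain. The sorted arrays were above both mdDA arrays for this GABAergic transcript. Arrays of one group correlated at 0.97 to 0.98 across probe sets, and array medians lay between 4.39 and 4.60 on the log2 scale. No detection call accompanies the values, so the 95th percentile of the olfactory receptor probe sets on each array (4.07 to 4.5) served as a guide, and a gene at or below it on both arrays of a group is called dim there. Probe sets differ in affinity, so levels are compared between groups and not between genes.

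Among the secreted ligands, *Rspo2* had its highest values in the mdDA domain. It read 4.72 and 4.99 in E14.5 neurons, 5.38 and 5.06 in E13.5 neurons, 6.02 and 5.77 in the mdDA domain, and 4.65 and 4.68 in the lateral domain, on the log2 scale. The 4 groups did not overlap, in the order mdDA domain, E13.5 neurons, E14.5 neurons and lateral domain. The share of all probe sets that separate so was not counted, here or for the genes below. *Lgr6* and *Rnf43* also did not overlap between the domains, without being called. The mdDA domain exceeded the lateral domain by 1.23 on the log2 scale (2.35-fold, SE 0.16, adjusted p = 0.072 from limma). The p-values were adjusted by Benjamini-Hochberg over all 35556 probe sets and called below a false discovery rate of 10%. In that comparison 1.52% of probe sets were called higher and 1.1% lower, against 1 of the 9 genes in each direction. In bulk samples, fewer cells that make a transcript and less RNA per cell cannot be told apart. With any single array left out *Rspo2* kept a difference of 1.11 to 1.36 but was not called (adjusted p = 0.141 to 0.156), and calls over all probe sets then dropped to 4 to 96 higher and 11 to 74 lower.

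*Rspo2* was also lower in sorted neurons than in the mdDA domain they were set against. The mean of both sorted groups lay 0.86 below the mdDA domain on the log2 scale (1.81-fold, SE 0.15, adjusted p = 0.0187 from limma over all 8 arrays). All 4 sorted arrays were below both mdDA arrays. In this comparison 8.53% of probe sets were called higher and 9.84% lower, shares near the 1 of the 9 genes in each direction. Without the mdDA array of replicate 1 the difference was -0.73 and was not called (adjusted p = 0.126). Progenitor markers moved the same way: the summed linear level of the 9 ventricular zone progenitor markers was 1490 to 1776 in E14.5 neurons, 1030 to 1063 in E13.5 neurons, 2373 to 2469 in the mdDA domain, beside 3892 to 4037 in the lateral domain. *Vim* and *Fabp7*, with the highest levels in every group, weigh most in this linear sum. That sum was highest in the lateral domain, where *Rspo2* was lowest. The progenitor sum and *Rspo2* thus ran together between sorted neurons and mdDA domain and against each other between the domains. Between the sorted stages the sum was higher and the mean of *Rspo2* lower at E14.5, a difference of *Rspo2* that was not called. Of 5 floor plate markers, 4 were called higher in the mdDA than in the lateral domain. Among these, *Corin* (1.85 between the domains, -1.97 in sorted neurons against the mdDA domain) and *Msx1* (1.39 and -1.02) moved with *Rspo2* in both comparisons, under all 3 scalings. Sorted neurons exceeded the mdDA domain in *Foxa1* by 0.70 (adjusted p = 0.0514 from limma), and *Foxa2* (-0.05) and *Shh* (0.32) were not called. The floor plate sum was 1095 to 1176 in E14.5 neurons, 1256 to 1404 in E13.5 neurons, 947 to 1088 in the mdDA domain, beside 155 to 160 in the lateral domain, where *Corin* was dim. *Foxa1* and *Foxa2* had the highest levels of these markers in sorted neurons and in the mdDA domain, and weigh most in the sum there. *Corin* and *Msx1*, which fell in sorted neurons, weigh little in it. The part of progenitor or floor plate content in the *Rspo2* differences was not tested. The erythroid markers were likewise lower, in 4 of 4 measured, and endothelial markers in 3 of 5, but in 3 of 4 and 1 of 5 (*Cdh5*) under either other scaling.

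Taken stage by stage, in tests added after the values were seen, E14.5 neurons had less *Rspo2* than the mdDA domain by 1.04 on the log2 scale (SE 0.17, adjusted p = 0.0217 from limma, with 6.88% of probe sets called higher and 7.37% lower). E13.5 neurons had less by 0.68 (SE 0.17, adjusted p = 0.0694, with 6.27% higher and 6.28% lower). E13.5 neurons still exceeded the lateral domain, by 0.56 (SE 0.17, adjusted p = 0.0851, with 9.38% higher and 10.8% lower). E14.5 neurons differed from the lateral domain by 0.19 (SE 0.17, adjusted p = 0.528, with 9.97% higher and 11.8% lower). The means of both sorted groups thus lay between those of the 2 dissected domains. Between adjacent groups in the *Rspo2* order, E14.5 neurons were not separated by test from E13.5 neurons or from the lateral domain. The E13.5 differences rest on little: that from the mdDA domain was not called under either other scaling (adjusted p = 0.105 and 0.137) or without any 1 of the 4 arrays, and that from the lateral domain not without either lateral array or E13.5 replicate 1 (adjusted p = 0.238 to 0.302).

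*Rspo3*, which like *Rspo2* is a strong potentiator of WNT signaling in cell assays, was highest on an E13.5 array. It had log2 levels of 4.41 and 4.04 in E14.5 neurons, 5.48 and 4.85 in E13.5 neurons, 5.0 and 4.51 in the mdDA domain, and 4.04 and 4.09 in the lateral domain. Its mdDA and lateral arrays did not overlap, nor did its E14.5 and E13.5 arrays, but replicate arrays lay up to 0.63 apart. The domains differed by 0.69 (95% confidence interval 0.16 to 1.22, adjusted p = 0.256), and E14.5 neurons lay 0.94 below E13.5 neurons (SE 0.28, adjusted p = 0.77), neither of which was called. In the lateral domain *Rspo3* was dim. The one called difference of *Rspo3* was that of E13.5 neurons over the lateral domain, 1.09 on the log2 scale (2.14-fold, SE 0.27, adjusted p = 0.0425 from limma over 8 arrays, added after the values were seen). It was not called without either lateral array or without E13.5 replicate 1, where it was 0.78 (adjusted p = 0.155 to 0.168 over these arrays).

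*Rspo1* and *Rspo4*, the remaining ligands, passed no test. *Rspo1* read 4.51 and 4.68 in E14.5 neurons, 4.31 and 4.04 in E13.5 neurons, 4.58 and 4.28 in the mdDA domain, and 4.61 and 4.47 in the lateral domain. Its E14.5 arrays lay above its E13.5 arrays by a mean of 0.42 (SE 0.17, adjusted p = 0.838), and the 2 domains overlapped. *Rspo4* stayed between 3.61 and 3.73 on all 8 arrays and was dim in every group, so the arrays carry little on it.

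**Figure D1:**
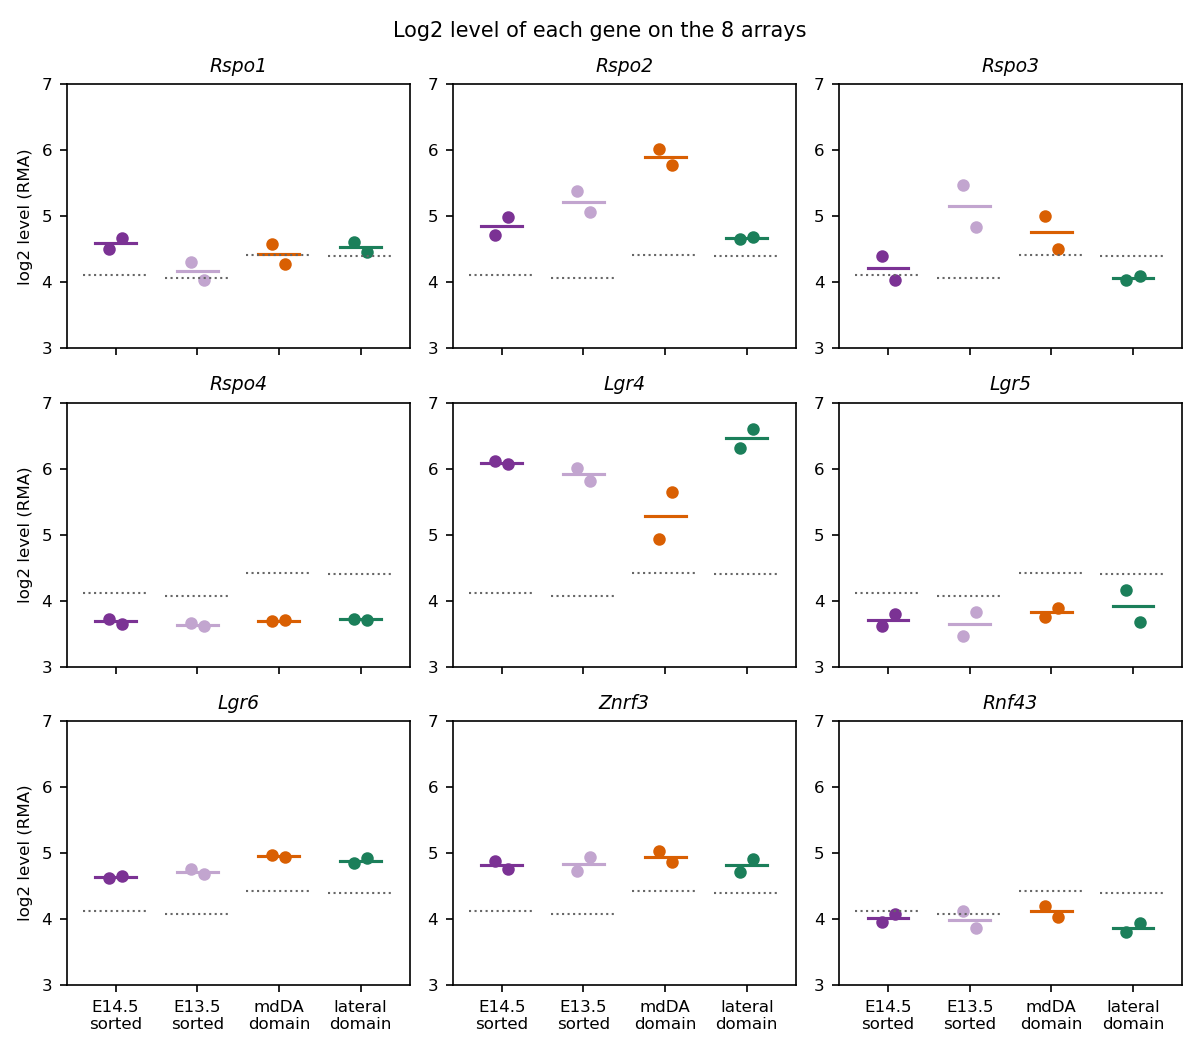
Log2 level (RMA, y axis) of each of the 9 genes in the 4 groups (x axis), with a point per array, a bar at the group mean and a dotted line at the group's mean 95th percentile of olfactory receptor probe sets. *Rspo2* is highest in the mdDA domain (6.02 and 5.77) and *Lgr4* lowest there (4.93 and 5.64), while *Rspo4* and *Lgr5* lie below the dotted line in all groups.

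The receptor *Lgr4*, the most widely used of the R-spondin receptors in mouse tissues, had the opposite order. Its log2 level was 6.11 and 6.08 in E14.5 neurons, 6.01 and 5.82 in E13.5 neurons, 4.93 and 5.64 in the mdDA domain, and 6.32 and 6.61 in the lateral domain. No group overlapped with another as deposited, again with no share over all probe sets to set beside it. The mdDA domain lay below all other arrays. The E14.5 arrays (at most 6.11) and the lateral arrays (at least 6.32) stood close together. Centring each array on its median raised the sorted samples by 0.21 there, so that separation depends on the scaling. Its difference between the mdDA and the lateral domain was -1.18 on the log2 scale (2.26-fold, SE 0.18, adjusted p = 0.0915 from limma). The 2 mdDA arrays differed by more than any other pair of *Lgr4* replicates, and the call depended on the fit. It was lost without the replicate block (adjusted p = 0.144) and without any 1 of the 4 arrays (difference -1.53 to -0.82, adjusted p = 0.146 to 0.401).

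Sorted neurons had more *Lgr4* than the mdDA domain, by 0.72 on the log2 scale (1.64-fold, SE 0.21, adjusted p = 0.0818). All 4 sorted arrays were above both mdDA arrays. This call rested on the mdDA arrays: without replicate 1 the difference was 0.36 (adjusted p = 0.346), and without replicate 2 it was 1.07 (adjusted p = 0.0569). It was also lost without any 1 of the other 6 arrays, at differences of 0.67 to 0.77, and with only the 6 arrays of these groups in the fit (adjusted p = 0.119). Stage by stage the differences from the mdDA domain were 0.81 at E14.5 (adjusted p = 0.101) and 0.63 at E13.5 (adjusted p = 0.182), neither of them called. Some alar plate and GABAergic markers moved with *Lgr4*. Their summed linear level over 6 genes was 337 to 363 in E14.5 neurons, 419 to 424 in E13.5 neurons, 129 to 152 in the mdDA domain, beside 1856 to 1930 in the lateral domain, with *Pax7*, *Gata3* and *Gad2* called higher in sorted neurons than in the mdDA domain. *Dbx1* (0.76), *Pax3* (-0.03) and *Tal2* (-0.17) were not called there, and the sum was higher at E13.5 than at E14.5, unlike *Lgr4*. On every sorted array *Gad2* had the highest level of the 6 genes, so it weighs most in the sum of these arrays. *Pax3*, *Pax7* and *Tal2* were dim in the mdDA domain, and *Pax3* and *Tal2* also in E14.5 neurons. The part of such cells in the *Lgr4* differences was not tested.

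*Lgr5* and *Lgr6*, the other receptors, were not called in any comparison. *Lgr5*, a stem cell marker in the intestine, read 3.61 and 3.80 in E14.5 neurons, 3.46 and 3.84 in E13.5 neurons, 3.76 and 3.89 in the mdDA domain, and 4.17 and 3.68 in the lateral domain. It was dim in all 4 groups and its groups overlapped. *Lgr6* varied little, with 4.62 and 4.66 in E14.5 neurons, 4.76 and 4.68 in E13.5 neurons, 4.97 and 4.94 in the mdDA domain, and 4.85 and 4.92 in the lateral domain. All sorted arrays were below all dissected arrays, and the difference of sorted neurons from the mdDA domain was -0.28 (95% confidence interval -0.51 to -0.04, adjusted p = 0.125). Array medians were also lower in the sorted samples, by a shift of 0.20 in that comparison, beside the -0.28 of *Lgr6*.

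The ligase genes *Znrf3* and *Rnf43* were not called in any comparison. *Znrf3* read 4.88 and 4.76 in E14.5 neurons, 4.73 and 4.94 in E13.5 neurons, 5.03 and 4.86 in the mdDA domain, and 4.71 and 4.92 in the lateral domain, and every pair of groups overlapped. The domains differed by 0.13, with a 95% confidence interval of -0.33 to 0.60. A difference of the size seen for *Rspo2* lies outside that interval, which measures the spread between technical arrays and not between embryos. *Rnf43* read 3.95 and 4.08 in E14.5 neurons, 4.12 and 3.86 in E13.5 neurons, 4.20 and 4.03 in the mdDA domain, and 3.80 and 3.94 in the lateral domain. Its mdDA arrays lay above its lateral arrays by a mean of 0.25 (95% confidence interval -0.20 to 0.69, adjusted p = 0.625), at levels dim in both domains.

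Over all 9 genes, the median difference between the mdDA and lateral domains was 0.07, beside -0.01 over all probe sets. In sorted neurons it was -0.11 against the mdDA domain, beside -0.08, and -0.05 against the lateral domain, beside -0.09. Both medians of sorted neurons turned positive under the other scalings, at 0.08 to 0.09 against the mdDA domain and 0.14 to 0.16 against the lateral domain. Against the lateral domain none of the 9 was called by limma, with 25.9% of probe sets called in either direction, and 2 had an unadjusted p under 0.05. *Rspo2* differed there by 0.37 (adjusted p = 0.141), *Rspo3* by 0.63 (adjusted p = 0.116) and *Lgr4* by -0.46 (adjusted p = 0.193). Between E14.5 and E13.5 neurons limma called none of the 9, with 0% of all probe sets called higher and 0% lower. At an unadjusted p under 0.05 stood 1 of the 9 genes (*Rspo3*) and 6.06% of probe sets, and with all 8 arrays in the fit 9 probe sets were higher and 11 lower, none of them of the 9 genes. Centring each array on its median raised the sorted samples by 0.20 against the mdDA domain and 0.21 against the lateral domain. Of the calls over all probe sets, those for higher levels in sorted neurons then made up 75.8% against the mdDA domain (46.4% as deposited) and 71.1% against the lateral domain (44.1% as deposited), and *Rspo2* and *Rspo3* were called higher in sorted neurons than in the lateral domain (0.58 and 0.84, adjusted p = 0.0357 and 0.0474). The signs of the *Rspo2* and *Lgr4* differences from the mdDA domain were unchanged by it (-0.66 and 0.91).

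**Figure D2:**
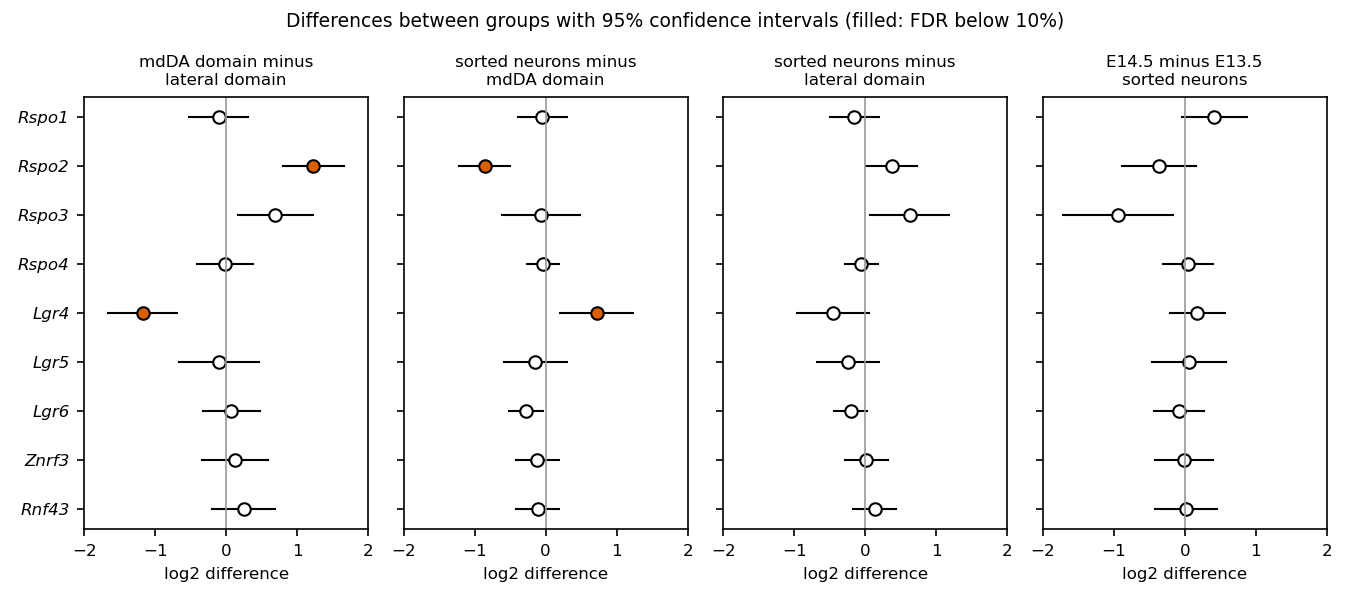
Log2 difference (x axis) of each gene (y axis) in the 4 comparisons, with 95% confidence intervals from limma and filled points where the false discovery rate was below 10%. *Rspo2* (1.23 and -0.86) and *Lgr4* (-1.18 and 0.72) are filled in the first and second panels, which share the mdDA arrays, and no point is filled in the others.

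The receptors on which R-spondins act indirectly were lower in the mdDA domain where they differed at all. Of 12 FZD and LRP genes, 3 were called lower than in the lateral domain and none higher, with a median difference of -0.21. They were *Fzd1* (-1.73, SE 0.17, adjusted p = 0.0507), *Fzd2* (-1.31, SE 0.15, adjusted p = 0.0623) and *Fzd8* (-1.03, SE 0.15, adjusted p = 0.0912), which each encode a seven-pass receptor for WNT ligands. *Fzd8* was not called after repeated quantile normalization. *Fzd8*, like *Lgr4*, was lowest in the mdDA domain, with log2 levels of 5.11 and 4.90 in E14.5 neurons, 5.70 and 5.37 in E13.5 neurons, 4.03 and 4.31 in the mdDA domain, and 5.16 and 5.23 in the lateral domain. Sorted neurons had 1.10 more *Fzd8* than the mdDA domain (adjusted p = 0.00994), while *Fzd2*, *Lrp5* (-0.74, adjusted p = 0.0398) and *Fzd6* were lower. After centring, *Lrp5* was the only one still called lower. Against the lateral domain, where 4057 probe sets were called higher and 5141 lower, sorted neurons were lower for 7 of 12, among them *Fzd1* and *Fzd2* (each at -2.09) and *Lrp5* (-1.03), and for 5 of 12 after centring. The 3 Dishevelled genes, whose products link the ligases to FZD, showed no call between the domains, and *Dvl3* was lower in sorted neurons than in the lateral domain by 0.39 (adjusted p = 0.0761), a call lost after centring.

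Other partners of R-spondins, chiefly heparan sulfate proteoglycans, changed in both directions, with more of them higher than lower in sorted neurons. *Sdc3*, the neuronal syndecan, was higher by 1.19 in the mdDA than in the lateral domain (2.27-fold, SE 0.15, adjusted p = 0.0713), the one call among 12 genes. Its log2 level was 8.39 and 8.71 in E14.5 neurons, 8.37 and 8.38 in E13.5 neurons, 7.59 and 7.53 in the mdDA domain, and 6.36 and 6.40 in the lateral domain. *Sdc2* stood out in the sorted neurons, with 6.60 and 6.48 at E14.5 and 6.03 and 5.84 at E13.5, beside 4.12 and 4.57 in the mdDA domain, and 4.14 and 4.19 in the lateral domain. Sorted neurons exceeded the mdDA domain in *Sdc2* by 1.89 (3.71-fold, adjusted p = 0.0026), in *Sdc3* by 0.90 (adjusted p = 0.00989) and in *Gpc2*, a glypican of developing neurons, by 0.63 (adjusted p = 0.0213). *Gpc5* was lower by 0.36 (adjusted p = 0.095) at levels that were dim in every group, a call lost under both other scalings. Against the lateral domain 4 of 12 were higher and *Bmpr1a*, a BMP receptor that RSPO2 engages in Xenopus, was lower by 0.78 (adjusted p = 0.0157). Both syndecans and *Gpc2* kept these calls under both other scalings.

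Relatives of the receptors and ligases showed little. None of 4 further leucine-rich repeat hormone and relaxin receptors and none of 10 further transmembrane PA-RING ligases was called between the domains. In the sorted neurons *Rnf130* was the one PA-RING gene called, higher by 0.45 than in the mdDA domain (adjusted p = 0.0571), a call lost after repeated quantile normalization. It was also higher than in the lateral domain by 0.35 (adjusted p = 0.0923), a call likewise lost after repeated quantile normalization. The relaxin family receptor gene *Rxfp2* exceeded the lateral domain in sorted neurons by 0.46 (adjusted p = 0.0313), at levels that were dim in every group. Among 19 WNT ligands, *Wnt5a*, which signals mainly without b-catenin, was the one called between the domains, 2.14 higher in the mdDA domain (4.4-fold, SE 0.15, adjusted p = 0.0345), and limma called none between sorted neurons and the mdDA domain, although centring gave 3 higher and repeated quantile normalization 2. Against the lateral domain sorted neurons had *Wnt5a* higher by 2.84 (adjusted p = 8.84e-04) and 3 WNT ligands lower, of which none was called after centring. Of 13 WNT/b-catenin target genes, *Lef1* (-2.33, adjusted p = 0.0326) and *Ccnd1* (-2.45, adjusted p = 0.0333) were lower and *Apcdd1*, a WNT inhibitor, higher (1.19, adjusted p = 0.072) in the mdDA domain. *Lef1*, *Apcdd1* and *Myc* were lower in sorted neurons than in the mdDA domain, by differences of -0.70, -0.71 and -0.99. *Axin2*, the feedback target most often used as a readout, read 5.95 and 6.32 in E14.5 neurons, 5.78 and 6.38 in E13.5 neurons, 6.32 and 5.84 in the mdDA domain, and 6.10 and 6.11 in the lateral domain, and was named after its values were seen. These lists were described by counts and were not tested as sets.

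**Figure D3:**
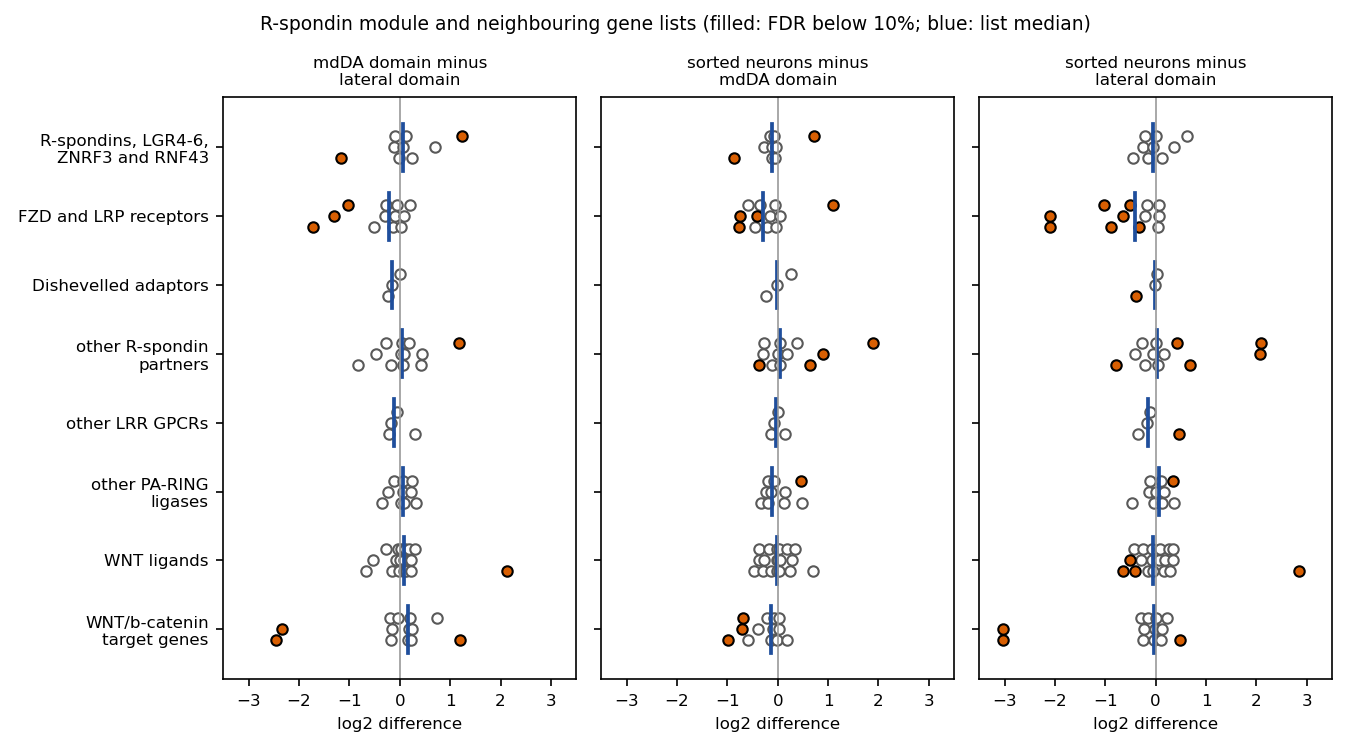
Log2 difference (x axis) of every measured gene of the 9 genes and of 7 neighbouring lists (y axis) in 3 comparisons, with filled points below a false discovery rate of 10% and a blue line at each list's median. Calls among FZD and LRP receptors lie mostly on the lower side (3 of 12 between the domains), and those among other R-spondin partners mostly on the higher side (3 higher and 1 lower in sorted neurons against the mdDA domain).

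The genes whose values over the 8 arrays were most like those of *Rspo2* and *Lgr4* were sought among 2097 genes with an SD of at least 0.5. For *Rspo2* they were *Dnah9*, an axonemal dynein (Pearson r = 0.955), the kinase gene *Hunk* (0.943), *Kitl*, which encodes KIT ligand (0.942), *Ccdc3* (0.935) and *Plxdc2* (0.933). *Plxdc2* averaged 5.27 in E14.5 neurons, 5.55 in E13.5 neurons, 7.69 in the mdDA domain, beside 5.20 in the lateral domain. For *Lgr4* they were *Sst*, which encodes somatostatin (0.954), and the transcription factor genes *Nfib* (0.923), *Lhx2* (0.912) and *Id2* (0.868), then *Gad2* (0.865). *Lhx2* averaged 6.86 in E14.5 neurons, 7.10 in E13.5 neurons, 4.63 in the mdDA domain, beside 9.80 in the lateral domain, a far wider range than *Lgr4*. *Rspo2* and *Lgr4* themselves had r = -0.897 over the 8 arrays. These are descriptions over 4 pairs of technical arrays, and any gene that separates the mdDA domain from the rest will rank high.

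**Figure D4:**
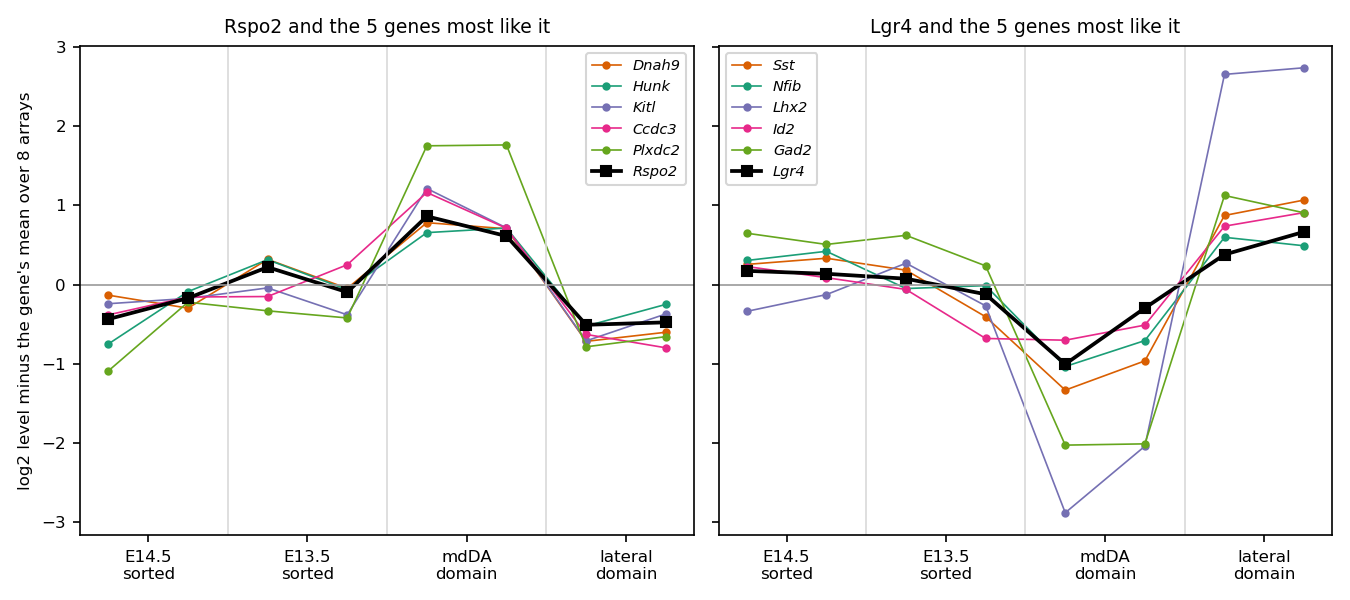
Log2 level minus the gene's own mean over the 8 arrays (y axis) on each array (x axis, 2 per group) for *Rspo2* (left, black) and *Lgr4* (right, black) and the 5 genes most like each; lines join arrays only to guide the eye. *Rspo2* peaks and *Lgr4* dips in the mdDA domain, and *Lhx2* spans the widest range, averaging 4.63 in the mdDA domain, beside 9.80 in the lateral domain.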

How the data were processed

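RNA of sorted mdDA neurons and of laser-microdissected domains was measured on 8 arrays, with groups and replicate numbers taken from the sample labels. The values deposited by the authors are on the log2 scale, 1 per probe set, and per the labels were made with RMA in Affymetrix Expression Console 1.2 (sketch-quantile, gene level), and these were used as deposited. No genome build was given in the sources used here for the arrays. Of 35556 probe sets, 21789 had 1 gene symbol, 1621 several and 12146 none, and 21698 were matched to RefSeq by gene ID with no symbol changed. A gene with several probe sets was read from the one with the highest mean.

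Groups were compared with limma 3.58.1 (R 4.3.3) on all probe sets. The domains were compared over their 4 arrays with the replicate number as block, since the methods name a paired test. Sorted neurons (mean of both stages) were compared with each domain over 8 arrays, and the 2 sorted stages with each other over 4, without a block. Each stage against each domain was added after the data were seen. The 9 genes and all lists were chosen with earlier results of these data known. Named from each list were up to 4 called genes, or the 2 most abundant where fewer than 2 were called, with a few named outside this rule (*Axin2* after its values were seen). Of the lists, some genes, *Lhcgr*, *Tcf7*, *Lmx1a* and *Ccnb1* among them, were not analysed here. Motifs and figures used Python 3.11.15 (matplotlib 3.10.9, numpy 2.4.6, pandas 2.3.3). The fits were run on simulated arrays with known differences, as a check of the sign and mean size of the estimates. Only 2 technical arrays per group limit the precision and give no spread between embryos.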

Additional observations from a re-analysis of the deposited data

How the results depend on the processing

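Over the 4 planned comparisons and the added ones, 678 single-gene results under an alternative stayed on their side of the threshold. Another 34 lost and 20 gained a call, and no called difference changed sign. Differences that were not called were not checked for a change of sign. Between the mdDA and lateral domains, the genes called (1 higher, 1 lower) became 0 higher and 0 lower at a false discovery rate below 5%, and 2 higher with only probe sets of 1 symbol or with the mean of all probe sets of a gene, where *Rspo3* joined. Leaving out an array gave 0 higher and 0 lower each time. In sorted neurons against the mdDA domain, the count of 1 higher fell to 0 below 5% and with only the arrays compared, and leaving out an array gave 0 to 1 higher and 0 to 1 lower. Against the lateral domain the count of 0 higher became 2 after repeated quantile normalization, after centring, with 1 symbol and with gene means, and 1 (*Rspo3*) with a filter on dim probe sets, which keeps 16920 probe sets and 3 of the 9 genes. The count of 0 lower became 1 (*Lgr4*) with only the arrays compared, and leaving out an array gave 0 to 1 in either direction. The cause was not tested.

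The replicate numbers did not pair the arrays: deviations of same-numbered arrays correlated at -0.04 to 0.01. Without the replicate block the domains differed at 829 probe sets higher and 605 lower, against 541 and 390, and 0 of the 9 genes were lower. With a replicate block sorted neurons had 1 gene, *Rspo3*, higher than the lateral domain did (0.63, limma adjusted p = 0.061). No other call of the 9 genes changed with the block.

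Counts over all probe sets moved by more than 1.5 times as follows. Between the domains, 130 were higher and 97 lower below 5%, 937 and 709 with trend and robust priors, 1342 and 1160 with 1 symbol, 1181 and 1011 with gene means, and 833 higher with the filter. Against the mdDA domain, 1970 higher and 1965 lower below 5% and 5580 and 1782 after centring stood beside 3032 and 3500, and without an mdDA array 949 to 1328 higher and 1088 to 1464 lower. Against the lateral domain, 6705 and 2732 after centring stood beside 4057 and 5141, and without a lateral array 2243 to 2272 higher and 2423 to 2498 lower. Taken by stage, centring gave 4304 higher and 1218 lower for E13.5 against the mdDA domain (beside 2229 and 2234), 4429 and 1439 for E14.5 (beside 2448 and 2621), and against the lateral domain 5417 and 2086 for E13.5 (beside 3334 and 3847) and 5597 and 2348 for E14.5 (beside 3545 and 4191). Without an mdDA or E13.5 array, E13.5 against the mdDA domain had 558 to 1153 higher and 555 to 940 lower, and without an mdDA array E14.5 had 740 to 983 and 824 to 963. Without E14.5 replicate 1, 1577 were lower for E14.5. Without a lateral array, 1776 to 1812 were higher and 1680 to 1809 lower for E13.5, and 1970 to 1980 and 2040 to 2060 for E14.5, and without an E13.5 array 2182 to 2333 were lower for E13.5. A lone array left in a group was assumed to vary like the others. Genes at dim levels, *Rspo4* and *Lgr5* in all groups, could hide differences that these arrays do not resolve.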

Other observations

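Among the 9 genes, *Rspo2* ran most closely with *Rnf43* (r = 0.762 over the 8 arrays) and *Rspo3* (0.619), and *Lgr4* ran against *Rnf43* (-0.64) and *Znrf3* (-0.561). These values are descriptions over 4 pairs of technical arrays, and *Rnf43* lay close to the level of the olfactory receptor probe sets. Between E14.5 and E13.5 neurons the 12 FZD and LRP genes had a median difference of -0.15 and the 12 other R-spondin partners one of 0.12, beside 0.00 over all probe sets, with no call in either list.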
